A study of Mus musculus with 10 samples.

Results

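The SLC25 genes encode the mitochondrial carriers, and their messages were followed here in corneal endothelium with and without Slc4a11. Members were all protein-coding genes whose GENCODE M21 symbol begins with Slc25a, 47 of the 55450 genes in the count table, and 42 of them had enough reads to be tested. Both groups were C57BL/6 mice aged 12 weeks, either Slc4a11-/- (KO) or Slc4a11+/+ (WT), and no treatment is named in the labels. The tissue was corneal endothelium peeled from the back of the cornea, with 5 libraries per genotype. Each library pooled 6 peelings from 3 animals, so a p-value measures the spread between pools. The sources used here do not say which part of Slc4a11 is deleted.

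Mitochondrial carriers sit mostly in the inner mitochondrial membrane and are built from tandem repeats that form a single substrate path. They exchange ADP for ATP and bring in phosphate, carboxylates, amino acids, nucleotides, cofactors and iron, which the inner membrane does not let through unaided. The corneal endothelium pumps fluid out of the stroma, is rich in mitochondria and is known to use glutamine as a fuel. SLC4A11 is a membrane transport protein of this layer, and the protein has also been placed in the inner mitochondrial membrane.

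Slc4a11 itself averaged 3791 ± 362 CPM (read counts scaled to a common library size; mean ± SD, n = 5) in WT and 95.4 ± 16.2 in KO. Its libraries ranged from 3489 to 4357 CPM in WT and from 70.1 to 114 CPM in KO, so all 10 matched their labels. Total counts ran from 36026193 to 51008996 per library. All 12 endothelial markers listed were detected, and without Slc4a11 itself the other 11 summed to 11274 to 12631 CPM in WT and 9972 to 12913 CPM in KO, which overlap. Keratocyte markers, from stromal cells that come along with the peeling, summed to 60853 to 93429 CPM in WT and 63633 to 85131 CPM in KO. Of 13 tested, 2 were lower in KO and none higher. Immune markers summed to 324 to 488 CPM in WT and 415 to 687 CPM in KO (2 of 12 higher and none lower). Member levels are those of the whole peeling, and the part that came from endothelial cells was not measured. Muscle markers summed to 287 to 339.8 CPM in WT and 236 to 258 CPM in KO, without overlap (1 of 6 tested higher and 3 lower), and blood vessel markers to 113 to 162 CPM in WT and 92.8 to 114 CPM in KO (2 of 8 higher and 1 lower). Schwann cell and nerve markers summed to 241 to 278 CPM in WT and 259 to 331 CPM in KO (6 of 8 higher). The part of these tissues in the members' differences was not tested. Of 24 epithelial markers tested, 15 were higher in KO, and 25 of 25 listed were found, with Dsg1a and Ly6d at 0 in at least 1 library. Their sum was 3996 to 5374 CPM in WT and 5104 to 10699 CPM in KO. The mean log2 CPM of the epithelial markers was 0.68 to 2.58 in WT, 5.19 in KO 1, 3.67 in KO 2, 0.91 in KO 3, 2.86 in KO 4 and 5.66 in KO 5. KO 1, KO 2 and KO 5 therefore stood apart, and KO 4 also lay above the highest WT library, by less. Results are also given with KO limited to KO 3 and KO 4, and with the epithelial marker mean as a covariate. The former fit still holds the epithelial excess of KO 4. In these bulk samples, fewer cells of a type and less RNA per cell cannot be told apart.

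The family's messages were dominated by the carriers of oxidative phosphorylation. To set genes beside each other, CPM was divided by the length of each gene's merged exons, giving CPM per kb. That length joins all annotated exons of a gene, and was 5550 bases for Slc25a3, 2353 for Slc25a4 and 1646 for Slc25a5. It can exceed the length of the message present, so ranks, shares and ratios between genes depend on the annotation. Slc25a4, the ADP/ATP carrier ANT1, led with 489 ± 35.8 CPM per kb in WT and 522 ± 36.7 in KO (mean ± SD, n = 5 each). Slc25a3, which imports the phosphate used for ATP synthesis, and Slc25a5, the ADP/ATP carrier ANT2, came next, at 111 ± 6.24 and 103 ± 8.45 CPM per kb in WT. Slc25a3 and Slc25a5 overlapped in level among WT libraries, whereas in KO the lowest Slc25a3 library (125 CPM per kb) was above the highest Slc25a5 library (122 CPM per kb). Slc25a11, the oxoglutarate-malate carrier, was at 36.6 ± 2.94 CPM per kb in WT. It did not differ in level beyond its spread from Slc25a39, a mitochondrial glutathione carrier, at 34.9 ± 3.69. Slc25a17, a carrier of peroxisomes, completed the 6 highest at 25.3 ± 0.794 CPM per kb.

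**Figure D1:**
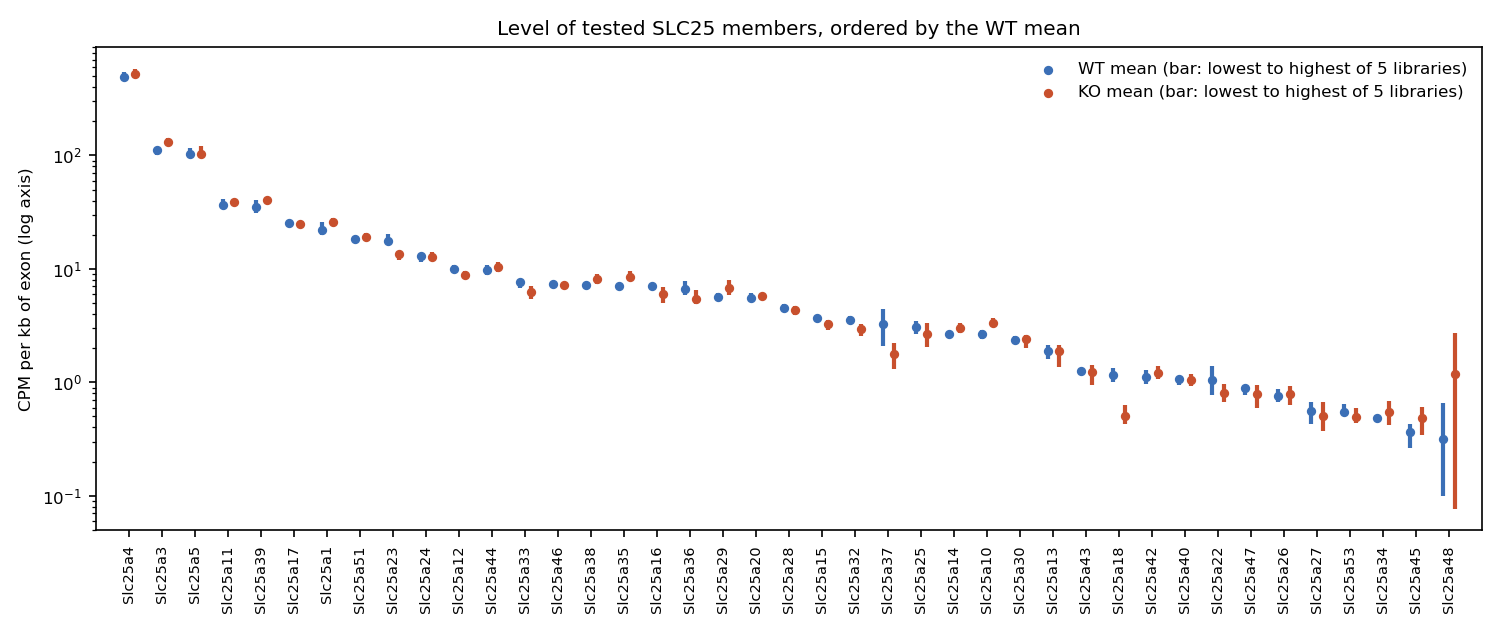
Level of tested SLC25 members in WT and KO libraries, in CPM per kb of exon on a log axis; points are group means and bars span the lowest to the highest of 5 libraries. Slc25a4, Slc25a3 and Slc25a5 stand at the top in both genotypes, and Slc25a4 alone reaches 489 CPM per kb in WT and 522 in KO.

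Summed over the family, the level was 985 ± 57.3 CPM per kb in WT and 1046 ± 43.2 in KO, with overlapping ranges (935 to 1081 and 1018 to 1120). Slc25a4 made up 49.6 ± 0.882% of that sum in WT and 49.9 ± 1.66% in KO. With Slc25a3 and Slc25a5, the share was 71.3 ± 0.590% in WT and 72.4 ± 1.25% in KO. The ratio of ANT1 to ANT2 message was 4.77 ± 0.0692 in WT (4.68 to 4.85) and 5.04 ± 0.220 in KO (4.74 to 5.35), and the ranges overlapped. At the low end, 9 tested members were under 5 CPM in WT, while 10 were over 50 CPM.

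Of the 42 members tested, 4 rose and 5 fell in KO at a Benjamini-Hochberg adjusted p under 0.05 in edgeR's quasi-likelihood test. That is 21.4% of the members, beside 15.3% of all 17729 genes tested. By direction, 9.52% of members rose beside 7.59% of all genes, and 11.9% fell beside 7.73%. Those that rose were Slc25a3, Slc25a1, Slc25a10 and Slc25a35, and those that fell were Slc25a18, Slc25a37, Slc25a23, Slc25a33 and Slc25a32. In 6 of the 9, the WT and KO libraries did not overlap (14.3% of members, beside 12% of all genes tested), with 3 of them higher (Slc25a3, Slc25a10, Slc25a35) and 3 lower (Slc25a18, Slc25a23, Slc25a32), where 5.88% of all genes were higher and 6.16% lower. In the other 3 called members, Slc25a1, Slc25a33 and Slc25a37, libraries of the groups overlapped.

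Most differences were small. The median log2 fold change (KO over WT) was 0.01 over the members and 0.00 over all genes, and the median absolute value was 0.18 beside 0.15. Differences were positive in 22 members and negative in 20. An absolute log2 fold change over 0.5 was seen in 3 members, Slc25a18, Slc25a37 and Slc25a48. A further 7 members had an adjusted p between 0.05 and 0.1 in edgeR, and DESeq2 called all 7 together with the 9 above, 7 higher and 9 lower, beside 20.2% of all genes (9.76% higher and 10.4% lower). Of these 7, 6 passed in edgeR in 1 of the 10 fits that left out a library and Slc25a36 in 3 of 10, while their highest adjusted p over those fits was 0.12 to 0.15. Slc25a39 passed without WT 1 (adjusted p = 0.0079), Slc25a16 without KO 1 (0.020), Slc25a38 without KO 2 (0.038), and Slc25a12 without KO 3 (0.035). Slc25a15 and Slc25a29 passed without KO 5 (0.033 and 0.037), and Slc25a36 without WT 1, WT 4 or KO 3 (0.048, 0.042 and 0.013).

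**Figure D2:**
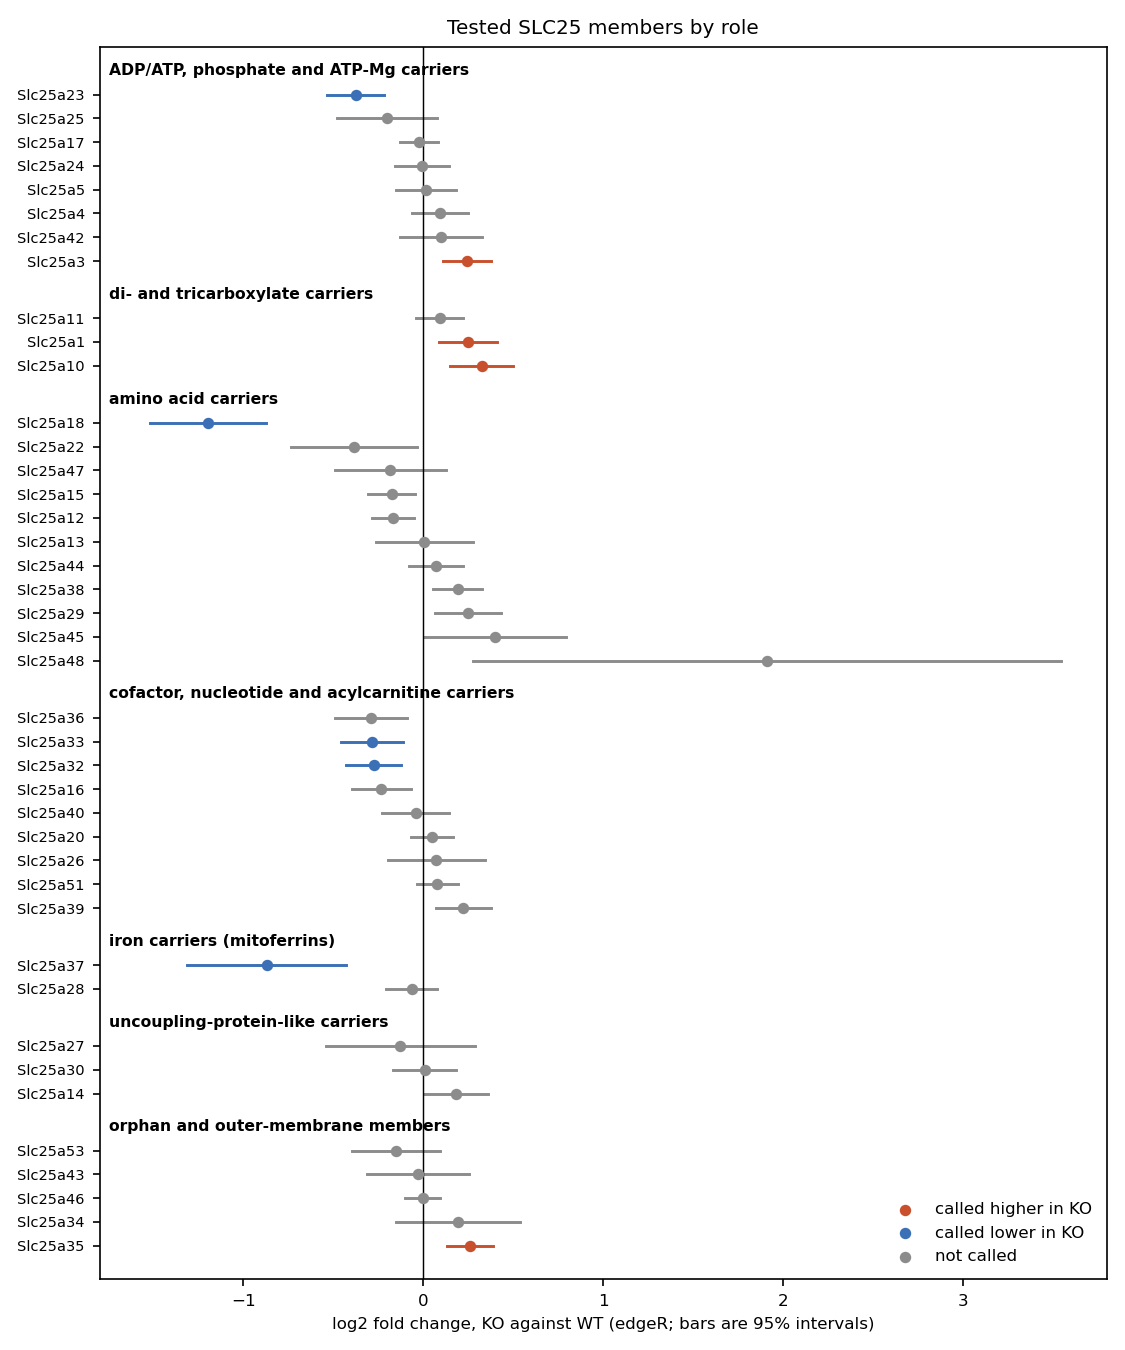
Log2 fold change of KO over WT for tested SLC25 members, grouped by transported substrate, with 95% intervals; red marks members called higher and blue those called lower in edgeR, grey the rest. Values crowd around 0 (median 0.01), Slc25a18 and Slc25a37 lie furthest to the lower side, and Slc25a48 has the widest interval.

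RefSeq promoter windows of GRCm38.p6, taken as the 250 bases before each start, were matched for 36 members (46 windows). The GC-box letters GGGCGG, on either strand, stood in 69.6% of member windows and 32.7% of all 32851 windows. The E-box CACGTG, read by MYC and USF family factors, stood in 17.4% and 6.02%. The shorter ACGTG, which every CACGTG contains and which is the core read by hypoxia-inducible factors, stood in 26.1% and 16.6%. CCAAT stood in 45.7% and 33.8%. TCACNCCAC, the sterol response element letters, was found in 1 member window, that of Slc25a18, and in 1.05% of all. All windows, from 27025 symbols, were used without a filter on gene type or expression, whereas members are protein-coding and most were tested. The part of that difference in these shares was not tested. Below are the windows of 4 called members whose RefSeq start lies within 10 bases of the GENCODE start, shown because 2 of them rose and 2 fell. Capitals mark GGGCGG and ACGTG or CACGTG on either strand, and all are written 5′ to 3′ along the gene. The first is from chr16:17928220-17928469, minus strand, the second from chr11:120491587-120491836, plus strand, the third from chr17:57059864-57060113, minus strand and the last from chr4:149774268-149774517, minus strand.
Slc25a1: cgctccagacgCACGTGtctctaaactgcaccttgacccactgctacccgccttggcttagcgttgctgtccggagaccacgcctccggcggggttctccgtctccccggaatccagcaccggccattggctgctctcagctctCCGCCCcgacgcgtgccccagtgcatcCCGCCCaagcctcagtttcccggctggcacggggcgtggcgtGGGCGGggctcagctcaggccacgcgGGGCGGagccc
Slc25a10: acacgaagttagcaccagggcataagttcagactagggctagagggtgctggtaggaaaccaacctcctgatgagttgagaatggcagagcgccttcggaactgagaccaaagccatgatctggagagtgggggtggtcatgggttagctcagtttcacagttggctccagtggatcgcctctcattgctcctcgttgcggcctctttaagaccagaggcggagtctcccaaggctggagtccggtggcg
Slc25a23: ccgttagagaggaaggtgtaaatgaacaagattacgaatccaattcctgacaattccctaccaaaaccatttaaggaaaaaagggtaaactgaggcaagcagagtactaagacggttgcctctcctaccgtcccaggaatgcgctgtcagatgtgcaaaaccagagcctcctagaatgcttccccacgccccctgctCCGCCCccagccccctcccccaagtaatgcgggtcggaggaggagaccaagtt
Slc25a33: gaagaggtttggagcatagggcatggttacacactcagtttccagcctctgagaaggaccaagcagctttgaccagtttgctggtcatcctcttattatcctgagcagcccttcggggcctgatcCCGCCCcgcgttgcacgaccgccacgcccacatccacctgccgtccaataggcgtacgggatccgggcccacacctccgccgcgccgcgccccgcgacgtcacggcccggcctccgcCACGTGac
Slc25a1, which rose, holds GGGCGG 4 times and 1 CACGTG, whereas Slc25a10, which also rose, holds neither. Among those that fell, Slc25a33 holds 1 of each and Slc25a23, shown for 1 of its 2 RefSeq starts, holds GGGCGG 1 time. Such matches describe the letters in these windows and no binding was measured.

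Among the ADP/ATP, phosphate and ATP-Mg carriers and their close relatives, the phosphate carrier rose and the ATP-Mg carrier Slc25a23 fell, while the ADP/ATP carriers passed no test. The list held 10 members, Slc25a17 and Slc25a42 with other substrates among them, of which 8 were tested. Of those 1 was higher and 1 lower, beside 7.59% and 7.73% of all genes, and the median log2 fold change was 0.00. The same shares of all genes are the background of the role lists that follow. Slc25a3 (ENSMUSG00000061904.12; chr10:91116574-91124059, minus strand of GRCm38.p6) was at 637, 648, 601, 563 and 631 CPM in WT 1 to WT 5 and at 706, 695, 725, 793 and 726 CPM in KO 1 to KO 5. Every KO library was above every WT library, and the mean moved from 616 ± 34.6 to 729 ± 37.9 CPM. The log2 fold change was 0.24 (SE 0.06, 95% interval 0.11 to 0.38, edgeR adjusted p = 0.021). Leaving out WT 3 or KO 4 ended the call, with edgeR adjusted p of 0.052 and 0.055.

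Slc25a4 had 1291, 1106, 1073, 1128 and 1159 CPM in WT 1 to WT 5 and 1190.3, 1269.8, 1171, 1150.0 and 1359.6 CPM in KO 1 to KO 5. The groups overlapped, and the log2 fold change was 0.09 (SE 0.07, 95% interval -0.06 to 0.25, edgeR adjusted p = 0.40). For Slc25a5 the values were 193, 161, 159, 166 and 167 CPM in WT and 166, 166, 160.0, 162 and 201 in KO, in the same order of libraries. WT 1 and KO 5 were the high libraries of their groups, and the log2 fold change was 0.02 (SE 0.08, 95% interval -0.15 to 0.18, edgeR adjusted p = 0.92). A processed pseudogene, Slc25a5-ps, was counted at 0.927 ± 0.291 CPM in WT and 0.948 ± 0.318 in KO. The sources used here do not give how reads shared by such copies were counted, and the Slc25a5 level carries that uncertainty.

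The calcium-regulated carriers exchange ATP-Mg for phosphate and so set the adenine nucleotide content of mitochondria. Slc25a23 (ENSMUSG00000046329.14; chr17:57043711-57059863, minus strand) was at 108, 90.7, 85.6, 88.2 and 95.4 CPM in WT 1 to WT 5 and at 75.3, 75.1, 75.7, 70.3 and 63.7 CPM in KO 1 to KO 5. All KO libraries were below all WT libraries, with a log2 fold change of -0.38 (SE 0.07, 95% interval -0.53 to -0.22, edgeR adjusted p = 0.0052). Its relatives Slc25a24 and Slc25a25 had log2 fold changes of -0.01 (adjusted p = 0.94) and -0.20 (adjusted p = 0.30) in edgeR. Per kb, the ratio of Slc25a23 to Slc25a24 was 1.37 ± 0.121 in WT and 1.07 ± 0.132 in KO, without overlap (lowest WT 1.20, highest KO 1.19). The ratio of Slc25a23 to Slc25a25 was 5.85 ± 1.08 in WT (4.96 to 7.66) and 5.27 ± 0.967 in KO (3.99 to 6.21), with overlap. Slc25a17 was at 75.4, 71.2, 69.2, 72.3 and 72.5 CPM in WT and 73.8, 70.7, 65.3, 72.9 and 71.7 in KO, overlapping throughout, with a log2 fold change of -0.03 (SE 0.05, 95% interval -0.13 to 0.08, edgeR adjusted p = 0.77). Slc25a42, which brings coenzyme A into mitochondria, had 0.10 (adjusted p = 0.57) in edgeR.

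Among the di- and tricarboxylate carriers, the citrate and the dicarboxylate carrier rose. Of 3 tested members of that list, 2 were higher and none lower, beside 7.59% and 7.73% of all genes, and a list of 3 is too short to set against those shares. Its median log2 fold change was 0.25, beside 0.00 over all genes. Slc25a1, which exports citrate to the cytosol for fatty acid and sterol synthesis (ENSMUSG00000003528.15; chr16:17925223-17928219, minus strand), was at 56.1, 46.4, 44.2, 43.3 and 47.7 CPM in WT 1 to WT 5. In KO 1 to KO 5 it was at 52.4, 53.9, 60.5, 55.2 and 59.8 CPM. WT 1 lay within the KO range and the other 4 WT libraries below it, and the log2 fold change was 0.25 (SE 0.07, 95% interval 0.08 to 0.41, edgeR adjusted p = 0.043). Without WT 1 the edgeR adjusted p was 0.0061. Leaving out any 1 of the other 9 libraries ended the call, with edgeR adjusted p up to 0.10, reached without WT 3.

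Slc25a10, the dicarboxylate carrier that exchanges malate and succinate for phosphate (ENSMUSG00000025792.9; chr11:120491840-120499187, plus strand), was at 9.57, 8.27, 8.70, 10.01 and 9.44 CPM in WT 1 to WT 5. In KO 1 to KO 5 it was at 12.2, 11.2, 10.5, 10.9 and 12.8 CPM, and no library crossed between groups. Its window, printed above, holds none of the 5 motifs searched. The log2 fold change was 0.33 (SE 0.08, 95% interval 0.15 to 0.50, edgeR adjusted p = 0.019). Slc25a11, which trades oxoglutarate for malate in the malate-aspartate shuttle, had 88.3, 74.9, 72.7, 74.7 and 77.1 CPM in WT and 79.3, 80.9, 83.3, 82.4 and 87.2 in KO. Its groups overlapped, with WT 1 the highest of all 10, and its log2 fold change was 0.09 (SE 0.06, 95% interval -0.04 to 0.22, edgeR adjusted p = 0.32).

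**Figure D3:**
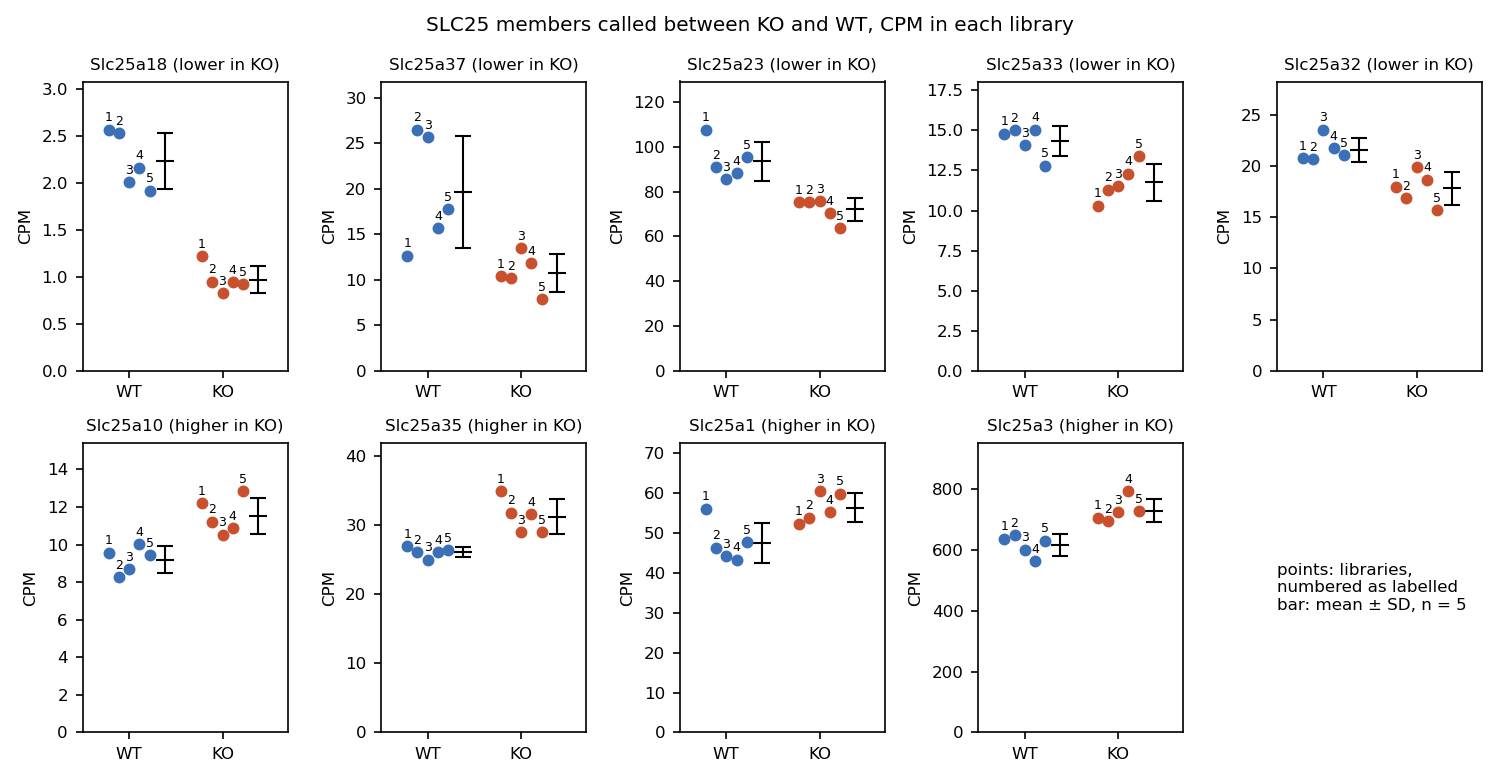
CPM in each library for the 9 SLC25 members called between KO and WT, one panel per gene with its own axis from 0; points are libraries numbered as labelled, and bars are the mean ± SD of 5 libraries. Slc25a18 shows the clearest gap, with WT from 1.92 to 2.56 CPM and KO from 0.826 to 1.22 CPM, whereas Slc25a1, Slc25a33 and Slc25a37 have libraries of one group within the range of the other.

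A list of amino acid carriers had 11 tested members, among them Slc25a45, Slc25a47 and Slc25a48, whose substrates are less settled or other than amino acids. Of these 1 fell and none rose, and it had the smallest adjusted p of the family. Slc25a18, glutamate carrier 2, brings glutamate into mitochondria together with a proton (ENSMUSG00000004902.7; chr6:120773578-120794336, plus strand). It was at 2.56, 2.53, 2.00, 2.16 and 1.92 CPM in WT 1 to WT 5 and at 1.22, 0.948, 0.826, 0.939 and 0.924 CPM in KO 1 to KO 5. Every KO library was below every WT library, from a mean of 2.23 ± 0.297 to 0.971 ± 0.146 CPM, 2.30-fold lower. The log2 fold change was -1.20 (SE 0.15, 95% interval -1.52 to -0.88, edgeR adjusted p = 3.3e-04), and the call held in all 21 alternative settings (log2 fold change -1.37 to -1.14). The message is rare, with 703 reads over 10 libraries, and 32 exon bases (1.7%) are shared with Atp6v1e1 on the opposite strand, which was at 243 ± 11.9 CPM in WT and 223 ± 24.3 in KO.

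Slc25a22, glutamate carrier 1, was at 6.26 ± 1.42 CPM in WT and 4.80 ± 0.775 in KO, with a log2 fold change of -0.39 (SE 0.16, 95% interval -0.74 to -0.04, edgeR adjusted p = 0.12). Per kb, the ratio of carrier 1 to carrier 2 was 0.906 ± 0.214 in WT and 1.62 ± 0.431 in KO, without overlap (highest WT 1.06, lowest KO 1.13). The aspartate-glutamate carriers Slc25a12 (aralar) and Slc25a13 (citrin) feed the malate-aspartate shuttle. Their log2 fold changes in edgeR were -0.17 (adjusted p = 0.054) and 0.01 (adjusted p = 0.98), and aralar was 5.32 ± 0.404 times citrin per kb in WT and 4.81 ± 0.909 times in KO. Slc25a38, the glycine carrier of heme synthesis, had 0.19 (adjusted p = 0.062), Slc25a29, a carrier of basic amino acids, 0.25 (adjusted p = 0.066), and the ornithine carrier Slc25a15 -0.18 (adjusted p = 0.067). The branched-chain amino acid carrier Slc25a44 was at 0.07 (adjusted p = 0.51). Slc25a45 and Slc25a47, for which amino acids are not firmly established as substrates, were at 0.40 (adjusted p = 0.15) and -0.18 (adjusted p = 0.40).

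Carriers of cofactors and nucleotides gave 2 lower members, none higher and a median of 0.00 among 10 tested. Slc25a32, which carries folate and FAD (ENSMUSG00000022299.9; chr15:39091231-39112716, minus strand), was at 20.7, 20.7, 23.5, 21.7 and 21.02 CPM in WT 1 to WT 5 and at 17.95, 16.8, 19.9, 18.7 and 15.7 CPM in KO 1 to KO 5. The groups did not overlap, and the log2 fold change was -0.28 (SE 0.07, 95% interval -0.43 to -0.12, edgeR adjusted p = 0.021). Leaving out WT 3 or KO 2 ended this call as well, with edgeR adjusted p of 0.054 and 0.050.

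Slc25a33 imports pyrimidine nucleotides for mitochondrial DNA and RNA synthesis (ENSMUSG00000028982.9; chr4:149744036-149774277, minus strand). It was at 14.8, 14.998, 14.1, 15.04 and 12.8 CPM in WT 1 to WT 5 and at 10.3, 11.3, 11.5, 12.3 and 13.4 CPM in KO 1 to KO 5, where KO 5 lay above WT 5. The log2 fold change was -0.29 (SE 0.08, 95% interval -0.46 to -0.11, edgeR adjusted p = 0.030). Leaving out WT 1, WT 2, WT 3, WT 4, KO 1, KO 2 or KO 3 ended this call, with edgeR adjusted p up to 0.071 (without KO 1). The other pyrimidine nucleotide carrier, Slc25a36, had a log2 fold change of -0.29 (SE 0.09, 95% interval -0.49 to -0.09, edgeR adjusted p = 0.052).

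Slc25a39, the fifth most abundant member per kb, was at 113, 94.6, 85.2, 91.8 and 96.2 CPM in WT 1 to WT 5 and at 109.9, 106, 113, 118 and 114 CPM in KO 1 to KO 5. WT 1 lay within the KO range, and the log2 fold change was 0.22 (SE 0.07, 95% interval 0.07 to 0.38, edgeR adjusted p = 0.053). Its paralog Slc25a40 had -0.04 (adjusted p = 0.77) in edgeR. Slc25a16, linked to coenzyme A, had -0.23 (adjusted p = 0.055). The NAD carrier Slc25a51, the acylcarnitine carrier Slc25a20 and the S-adenosylmethionine carrier Slc25a26 had log2 fold changes of 0.08, 0.05 and 0.07, none called.

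Of the mitoferrins, which deliver iron for heme and iron-sulfur clusters, Slc25a37 fell and Slc25a28 passed no test. Slc25a37 (mitoferrin 1, ENSMUSG00000034248.7; chr14:69241848-69285112, minus strand), best known from red cell precursors, was at 12.6, 26.5, 25.7, 15.6 and 17.8 CPM in WT 1 to WT 5. In KO 1 to KO 5 it was at 10.4, 10.2, 13.4, 11.8 and 7.89 CPM. WT 2 and WT 3 were the highest libraries and WT 1 lay below KO 3, so the groups overlapped. The mean moved from 19.7 ± 6.16 to 10.7 ± 2.07 CPM, 1.83-fold lower, with a log2 fold change of -0.87 (SE 0.20, 95% interval -1.31 to -0.43, edgeR adjusted p = 0.014). Slc25a28 (mitoferrin 2) was at 17.1 ± 0.967 CPM in WT and 16.3 ± 1.13 in KO, with a log2 fold change of -0.07 (adjusted p = 0.53). The ratio of mitoferrin 1 to mitoferrin 2 per kb was 0.717 ± 0.221 in WT and 0.413 ± 0.0887 in KO, with overlap.

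The level of Slc25a37 was high in the WT libraries where the messages encoded by mitochondrial DNA were also high. The mean log2 CPM of those 13 messages was 8.49, 10.21, 10.12, 9.23 and 9.32 in WT 1 to WT 5 and 9.17, 9.38, 8.47, 8.79 and 8.84 in KO 1 to KO 5. The KO libraries did not follow that order. KO 3 had the lowest mean of KO and the highest Slc25a37 (13.4 CPM), and KO 2 had the highest mean with 10.2 CPM. With that mean as a covariate, a setting chosen after the data were seen, the log2 fold change of Slc25a37 was -0.57 (edgeR adjusted p = 0.092). Red cell markers summed to 16.3 to 87.5 CPM in WT and 4.19 to 27.1 CPM in KO, and 1 of 5 tested was lower in KO. WT 2 and WT 3, the highest in Slc25a37, had the lowest red cell sums of WT (16.3 and 17.4 CPM). The part of these measures in the Slc25a37 difference was not tested beyond that covariate.

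Slc25a48, described as a choline carrier, had the largest log2 fold change of the family and the widest spread. It was at 0.954, 1.34, 2.21, 0.503 and 0.336 CPM in WT 1 to WT 5 and at 5.67, 3.94, 0.261, 0.966 and 9.19 CPM in KO 1 to KO 5. KO 1, KO 2 and KO 5 were the 3 highest of all libraries and KO 3 the lowest of all, and the log2 fold change of 1.91 (SE 0.75, 95% interval 0.28 to 3.55, edgeR adjusted p = 0.11) was not called. KO 1, KO 2 and KO 5 were also the 3 libraries highest in epithelial markers, and the keratin Krt5 was at 593, 201 and 1120 CPM there, 2.69 CPM in KO 3 and 51.5 CPM in KO 4. With KO limited to KO 3 and KO 4 the log2 fold change of Slc25a48 was -0.82 (SE 0.71, edgeR adjusted p = 0.57). With the epithelial covariate it was -0.69 (SE 0.41, edgeR adjusted p = 0.37), so neither fit called Slc25a48. Without KO 3 alone it was called in edgeR, at 2.22 (adjusted p = 0.025).

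**Figure D4:**
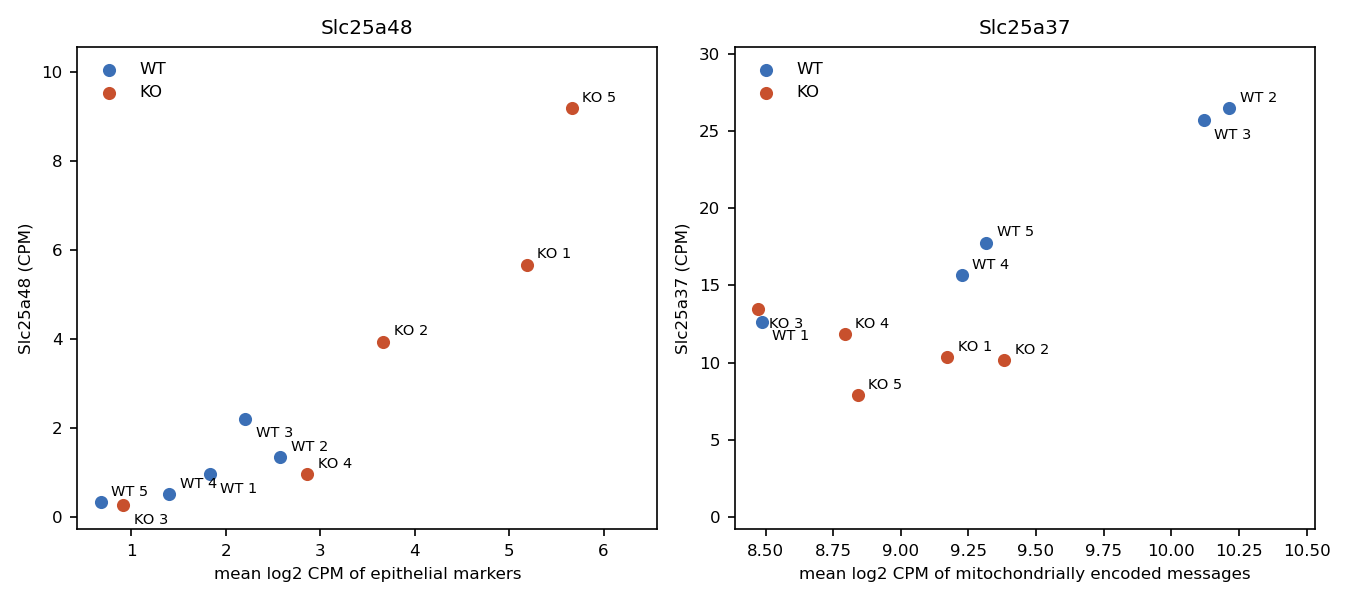
Slc25a48 against the mean log2 CPM of epithelial markers (left) and Slc25a37 against that of mitochondrially encoded messages (right); each point is 1 library, and both vertical axes are linear CPM. KO 1, KO 2 and KO 5 are highest on both axes on the left (up to 9.19 CPM), and WT 2 and WT 3 are highest on both on the right (26.5 and 25.7 CPM).

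No member resembling the uncoupling proteins (Slc25a14, Slc25a27, Slc25a30) was called among 3 tested, with log2 fold changes of 0.18, -0.13 and 0.01 in edgeR. Of the 5 tested members with no settled substrate or a place in the outer membrane, 1 rose. Slc25a35 (ENSMUSG00000018740.14; chr11:68968131-68974365, plus strand), a carrier without an established substrate, was at 26.96, 26.1, 25.000, 26.1 and 26.4 CPM in WT 1 to WT 5 and at 34.9, 31.8, 28.96, 31.6 and 28.9 CPM in KO 1 to KO 5. All KO libraries were above all WT libraries, with a log2 fold change of 0.26 (SE 0.06, 95% interval 0.13 to 0.39, edgeR adjusted p = 0.012). Of its exon bases, 31.3% are shared with Rangrf on the opposite strand, at 6.73 ± 0.473 CPM in WT and 7.54 ± 0.361 in KO (edgeR adjusted p = 0.18). The library kit keeps strand, but whether counting used it is not given in the sources here, and reads of this pair may be mixed. Slc25a46, which acts in the outer membrane in mitochondrial dynamics, had -0.00 (adjusted p = 0.96), and Slc25a34, Slc25a43 and Slc25a53 had 0.19, -0.03 and -0.15.

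Read counts were too low to test 5 members. Over all 10 libraries Slc25a2 had 33 reads, Slc25a31 (the testis ADP/ATP carrier) 9, Slc25a41 and Slc25a21 3 each, and Slc25a54 0. For Slc25a54 a count of 0 allows up to 3 reads in a library, which is 0.0593 to 0.0818 CPM.

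With KO limited to KO 3 and KO 4, 2 members were called higher (Slc25a38, Slc25a29) and 2 lower (Slc25a18, Slc25a16), beside 5.99% of all genes (2.86% higher and 3.14% lower). With the epithelial covariate, 2 were higher (Slc25a38, Slc25a29) and 1 lower (Slc25a18), beside 6.73% of all genes (3.05% higher and 3.69% lower). With the mitochondrially encoded message covariate, 1 was higher (Slc25a35) and 3 were lower (Slc25a18, Slc25a23, Slc25a12), beside 9.87% of all genes (4.74% higher and 5.13% lower). Of the 9 calls above, 1 stayed in each of the former pair of fits, that of Slc25a18, with log2 fold changes of -1.33 and -1.37. All 9 kept their direction in both. Slc25a3 was at 0.31 and 0.25, and Slc25a1 at 0.29 and 0.27, as large as with all libraries. Slc25a23 was at -0.35 (edgeR adjusted p = 0.055) and -0.32 (edgeR adjusted p = 0.050). Slc25a37 was at -0.63 (edgeR adjusted p = 0.20) and -0.77 (edgeR adjusted p = 0.074). Slc25a10 was at 0.22 and 0.25, Slc25a35 at 0.22 and 0.23, and Slc25a33 at -0.26 and -0.32. Slc25a32 shrank from -0.28 to -0.16 and -0.19. Slc25a29 was larger in both fits, at 0.43 and 0.35.

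Several members lie next to one another in the genome. By their GENCODE bounds, Slc25a29 and Slc25a47 lie 162 bases apart on opposite strands of chromosome 12, and their log2 fold changes were 0.25 and -0.18. The RefSeq promoter windows are further apart, at 108835827 to 108836126 for Slc25a29 and 108850879 to 108851178 for Slc25a47. Slc25a23 and Slc25a41 are 2056 bases apart on chromosome 17, with Slc25a41 near 0. Slc25a43 and Slc25a5 lie 18.4 kb apart on chromosome X, and Slc25a24 and Slc25a54 6461 bases apart on chromosome 3. On chromosome 2, which holds Slc4a11 at 130684113 to 130697519, the members are Slc25a25 and Slc25a12, 98.2 and 59.3 Mb away.

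Other mitochondrial genes gave a setting for these values. For these lists, here and in the next paragraph, the background is again 7.59% of all genes higher and 7.73% lower. Of the carriers of the same family that are named otherwise, Ucp2, Mtch1 and Mtch2 were tested, and none was called (log2 fold changes 0.52, 0.15 and -0.00 in edgeR). Ucp2 (edgeR adjusted p = 0.079) was at 37.5, 42.0 and 45.4 CPM in KO 1, KO 2 and KO 5. In KO 3 and KO 4 it was at 21.7 and 23.8 CPM, beside 21.9 to 28.3 CPM in WT. Of 26 tested genes for other mitochondrial membrane transport, 4 rose and 4 fell, with a median of 0.02. Sfxn1, the mitochondrial serine transporter, fell from 98.8 ± 7.08 to 81.7 ± 3.78 CPM, and Letm1, of cation exchange, rose from 60.9 ± 2.17 to 70.1 ± 3.91 CPM. Mcub, an inhibitory subunit of the calcium uniporter, rose from 1.09 ± 0.303 to 2.06 ± 0.524 CPM. Sfxn5, of the same family as Sfxn1, fell from 16.8 ± 0.704 to 14.1 ± 1.08 CPM. In that family Sfxn2 rose, by a log2 fold change of 0.22 (edgeR adjusted p = 0.025), and Sfxn3 and Sfxn4 were not called. Cpt2 of the carnitine system rose and Cpt1a fell, by log2 fold changes of 0.22 (adjusted p = 0.019) and -0.19 (adjusted p = 0.025) in edgeR. Of 16 genes for the import route of carriers, Timm22, the insertion pore, was the 1 that passed, at 0.20 (adjusted p = 0.031) in edgeR.

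Among 29 tested enzymes that make or use carrier substrates, 4 rose and 4 fell, and the median was 0.02. Acly, which splits the citrate that Slc25a1 exports, rose from 95.5 ± 6.19 to 116 ± 4.61 CPM, with a log2 fold change of 0.29 (SE 0.06, 95% interval 0.16 to 0.41, edgeR adjusted p = 0.0062). Alas1, the first enzyme of heme synthesis, rose from 28.98 ± 1.21 to 37.03 ± 2.58 CPM, and Mthfd2 of the mitochondrial folate pathway from 5.60 ± 0.983 to 8.31 ± 0.629 CPM. Shmt2, which makes one-carbon units from serine in mitochondria, fell from 55.3 ± 6.75 to 36.4 ± 1.69 CPM. Idh2 of the tricarboxylic acid cycle fell from 66.8 ± 3.34 to 51.8 ± 4.43 CPM. The glutamine transporter Slc1a5 fell from 20.8 ± 0.732 to 17.97 ± 0.838 CPM. Of 25 genes that mark mitochondrial content, 1 rose (Clpp, 0.35 (adjusted p = 0.0094) in edgeR), with a median of 0.03. Of the 13 messages encoded in mitochondria, 1 fell, mt-Co3, from 2273 ± 262 to 1381 ± 431 CPM (edgeR adjusted p = 0.020). Its groups overlapped, with KO 2 at 2009 CPM and WT 1 at 1989 CPM. The median log2 fold change of the 13 was -0.72, and 12 were not called. Their mean log2 CPM overlapped, from 8.49 to 10.21 in WT libraries and from 8.47 to 9.38 in KO libraries.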

How the data were processed

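Polyadenylated RNA from 10 libraries was analysed. The authors deposited raw read counts per gene, as integers that sum to another total in every library. Reads were processed, per the submitters' processing notes, with HISAT2 2.1.0, Subread 1.6.4 (featureCounts), cutadapt 2.4 and Trim Galore 0.6.4 on GRCm38.p6. The sources used here do not give the strand setting, the treatment of shared reads or the annotation release. Gene identifiers were matched to GENCODE M21. Per the labels' protocols, 100 ng of total RNA went into a stranded kit with 12 PCR cycles.

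Genes were filtered with filterByExpr (minimum count 10, minimum total 15) and tested with edgeR 4.0.16 in R 4.3.3, using TMM scaling and the quasi-likelihood F test, KO against WT, without covariates. Adjusted p-values are Benjamini-Hochberg over 17729 genes, and a gene was called under 0.05. CPM uses TMM-scaled totals, and CPM per kb divides by merged exon length. On simulated counts the test called 100% of genes changed by a log2 fold of 1, and 36% and 46% of those changed by -0.5 and 0.5. Biological variation between libraries, as edgeR's common coefficient, was 16.3%. The simulation gave every gene that same spread and changed only genes averaging at least 5 CPM. Its rates therefore do not cover rarer messages such as Slc25a18, or genes with a wider spread. Alternatives were other scalings, DESeq2 1.42.0, limma-voom (limma 3.58.1), filters, a replicate block, leaving out libraries, KO limited to KO 3 and KO 4, and 2 covariates, of which the mitochondrially encoded message mean was added after seeing the data. Libraries of a group differed from each other by more than counting noise (chi-square over degrees of freedom of 14.4 to 86.3). No molecular identifiers are named in the labels, so counting limits cover counting error only.

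Members and gene lists were chosen with earlier results of these data known. Values in every library were given for called members, the 6 highest per kb in WT and Slc25a48, which was chosen after its values were seen; other members were given by fold change or count. Of the other lists, up to 3 called genes in each direction were named by smallest p, and otherwise the 2 most abundant; further genes there were named after their values were seen. The 1 transcribed pseudogene with an Slc25a symbol is no member. Some genes were analysed and counted but are not reported here or drawn.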

Additional observations from a re-analysis of the deposited data

Results flagged for a closer look

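Of 84 groups of 5 libraries examined, 1 per tested member and genotype, 7 had a library set apart from the other 4 by more than Dixon's 95% critical value, and chance flags about 1 in 20 groups. WT 1 was the high library for Slc25a5, at 193.2 CPM against 158.7 to 167.0 in the other WT libraries. It was also high for Slc25a11, at 88.35 CPM against 72.72 to 77.07, and for Slc25a20, at 29.99 CPM against 25.89 to 26.82. KO 5 was high for Slc25a5, at 200.6 CPM against 160.0 to 166.2. KO 3 was high for Slc25a12, at 69.87 CPM against 63.32 to 65.01, KO 2 was low for Slc25a13, at 5.204 CPM against 7.224 to 8.028, and WT 2 was high for Slc25a53, at 5.119 CPM against 4.069 to 4.334. None of the 6 genes was among the called members.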

How the results depend on the processing

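The same 9 members were called in edgeR with DESeq2 size factors and with limma-voom. DESeq2 called 7 members higher and 9 lower. The filter of at least 1 CPM in 5 libraries called 4 higher and 8 lower, beside 2477 of all genes (16.8%), and no filter 2 higher and 5 lower, beside 2481 (7.85%). Total counts gave 5 higher and 3 lower, beside 14.7% of all genes, and moved the members' median to 0.0361, where the median of all genes was 0.03. With an adjusted p under 0.01, 1024 genes and 0 higher and 2 lower members remained (Slc25a18, Slc25a23). KO limited to KO 3 and KO 4 gave 1105 genes, 2 higher and 2 lower members; the epithelial covariate gave 1194, 2 and 1; the mitochondrially encoded message covariate gave 1750, 1 and 3. A replicate block gave 1691 genes, 2 higher and 5 lower members, against 2716, 4 and 5 without it (9.54% of all genes against 15.3%); it ended the calls of Slc25a1, Slc25a3 and Slc25a33. Same-numbered libraries correlated at -0.416 to 0.0851 and none of the 5 correlated best with its own number. Uneven epithelial content also enters these correlations, so they cannot tell whether same-numbered pools were prepared together. The labels used here name no pairing. Leaving out 1 library gave 1815 to 3094 genes, 2 to 5 higher members (2 without WT 3 or KO 4), 3 to 6 lower members (3 without WT 3 or KO 2) and a median of -0.00327 to 0.0325. Slc25a48 reversed to -0.82 with KO 3 and KO 4 alone and to -0.69 with the epithelial covariate, called in neither (edgeR adjusted p = 0.57 and 0.37). Slc25a5, at 0.02, turned to -0.0658 and -0.0670 in those fits and to -0.0447 with the mitochondrial covariate, and ranged from -0.0462 to 0.0701 over the left-out libraries. Slc25a17 turned to 0.00228 with total counts and ranged from -0.0413 to 0.00369 over left-out libraries. The cause of these shifts was not tested. Depth limits the 5 untested members.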
